A study of Cavia porcellus with 35 samples.

Results

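The cadherins and protocadherins are calcium-dependent adhesion proteins that hold cells together by binding copies of themselves, or close relatives, on the neighbouring cell. They were taken from the gene tables by symbol, as every gene named CDH or PCDH followed by a digit and every gene of the clustered PCDHA, PCDHB and PCDHG families, leaving out CDH5. The rule gave 31 genes among the 12100 symbols listed in at least 1 of 4 tables, of which 15 were CDH genes, 8 were PCDH genes outside the clusters and 8 were clustered protocadherins. Each table listed 30 of them and 28 stood in all 4 tables. CDH22 was listed in the tables of F1 females, F2 females and F1 males, PCDHA4 in those of F2 females, F3 females and F1 males, and PCDHA6 in those of F1 and F3 females.

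The samples were RNA-seq libraries, 1 for each guinea pig (Cavia porcellus), from punches of the medial prefrontal cortex (mPFC) taken at postnatal day 40. Pregnant guinea pigs were given repeated courses of the synthetic glucocorticoid betamethasone or saline in late gestation, and descendants of the first are called sGC animals and those of the second controls. F1 animals were the offspring of these mothers. F2 and F3 females were reached through fathers mated with females from outside the experiment. There were 4 control and 4 sGC females in each of F1, F2 and F3, and 5 control and 6 sGC F1 males, all without genetic modification as far as the labels state. Per the methods, no more than 1 female came from a litter, and animals were picked on the amount and quality of their RNA. The question for each table was which genes differ between sGC and control animals.

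Classical cadherins carry a cytoplasmic tail that binds catenins and through them actin. In cortex the type I protein N-cadherin (CDH2) is broadly present at synapses, while type II cadherins mark particular areas, layers and circuits, and their combination helps matched neurons adhere. Delta protocadherins, outside the clusters, steer axons and synapses through actin regulators and kinases. The clustered protocadherins are switched on in random combinations, 1 promoter at a time, which gives each neuron an identity used in self-avoidance of its branches.

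Assigned reads per library ranged between 12819964 and 19551079 for females and between 25697953 and 31763585 for males, and no difference in totals between sGC and control animals was found in any table (exact two-sided permutation p from 0.359 to 0.943). Levels are given as CPM, a gene's reads scaled to a common library size with TMM factors within a table, and are not divided by gene length, so they do not rank 1 gene against another. The labels name prefrontal cortex as the source and the paraventricular nucleus in the extraction text. The pyramidal neuron markers SLC17A7 and CAMK2A had control means of at least 429 and 1207 CPM in every table. The paraventricular markers CRH, AVP and OXT were at or below 3.63 CPM in every group mean where they were listed, and SIM1 ranged from 4.24 to 12.8 CPM. Among F1 females the striatal markers stood apart in control animals 1 and 4, with summed levels of 2309.7 and 2191 CPM, against 539.7 and 787 CPM in the other controls and 256 to 571 CPM in sGC animals. For some cadherins and protocadherins, results in F1 females are therefore also given without those 2 controls. Results for the proteins that work with cadherins are given with all animals only, so the part of those 2 controls in them was not tested.

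Of the 30 cadherins and protocadherins tested in F1 females, 5 were up-regulated and 1 was down-regulated in sGC animals (FDR < 0.05, edgeR's quasi-likelihood test). The share of all tested genes called in this comparison was 16.5%, with 9.21% higher and 7.33% lower, so the 6 of 30 stood near the background. Upper-quartile scaling turned that split of all genes to 7.13% higher and 9.66% lower, and gave 4 members higher and 1 lower. In F1 males, 2 members were higher and 1 was lower, where the background was 9.22%, with 5.74% higher and 3.48% lower. No member passed in F2 females, where 0.278% of all genes were called, or in F3 females, where 1.34% were. At an unadjusted p under 0.05, 10 members stood in F2 and 9 in F3, against 16.1% and 17.3% of all genes. The likelihood ratio test called 4 in F2 and 2 in F3, DESeq2 2 in each, and their shares of all genes are not given here. The median log2 fold change of the members was 0.08 in F1 females, -0.02 in F2 females, 0.09 in F3 females and -0.01 in F1 males, beside -0.03, 0.01, -0.01 and -0.00 over all tested genes. As tissue was measured whole, fewer cells of a type and less RNA per cell cannot be told apart.

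**Figure D1:**
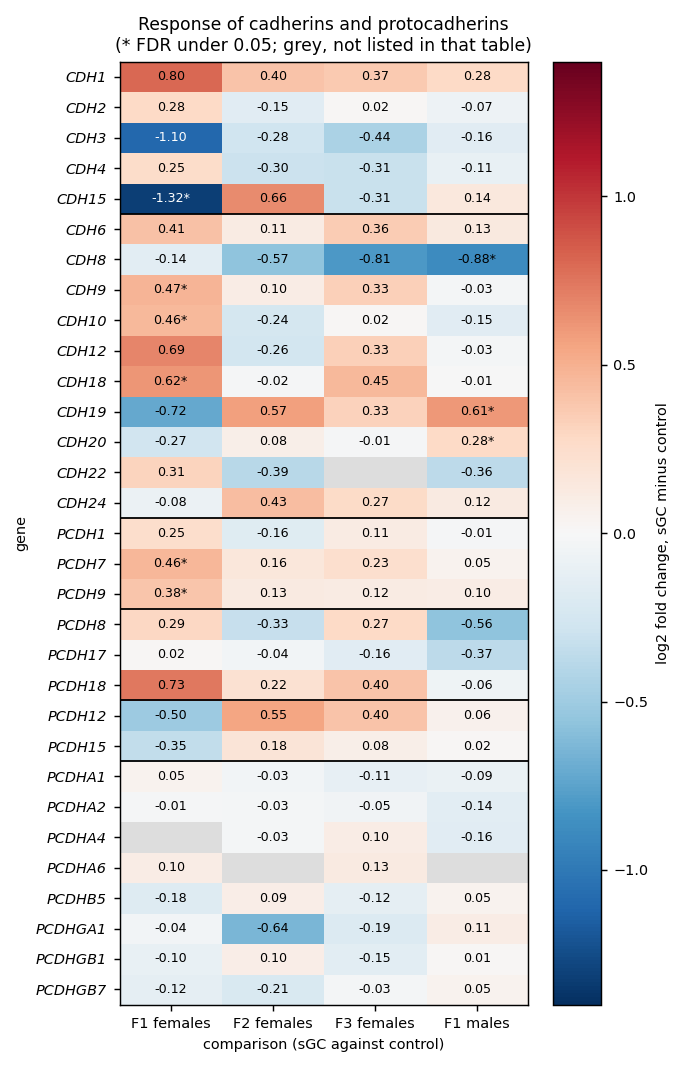
Log2 fold change (sGC minus control, colour and printed value) of each of the 31 genes in the 4 comparisons, with rules between the type I cadherins, type II cadherins, delta-1, delta-2, other and clustered protocadherins. Asterisks mark FDR under 0.05 and stand on 6 genes in F1 females and 3 in F1 males, with none in the F2 and F3 columns.

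Type II cadherins made up 3 of the 6 members that differed in F1 females, and all 3 were up-regulated. CDH18, a cadherin of the central nervous system, was at 54.3, 49.3, 44.2 and 46.7 CPM in the 4 controls and at 71.9, 80.8, 61.6 and 85.0 CPM in the 4 sGC females (log2 fold change 0.62 with an SE of 0.11, quasi-likelihood FDR = 0.00894). Every sGC female lay above every control. CDH10, expressed in subsets of cortical projection neurons, was at 44.6, 52.0, 49.9 and 51.5 CPM in control and 59.6, 60.6, 76.0 and 76.0 CPM in sGC females (log2 fold change 0.46 with an SE of 0.10, quasi-likelihood FDR = 0.0195). For CDH9, known for its part in the specificity of hippocampal mossy fibre synapses, the values were 29.1, 29.8, 27.9 and 26.2 CPM against 36.0, 44.1, 38.0 and 38.9 CPM (log2 fold change 0.47 with an SE of 0.08, quasi-likelihood FDR = 0.00732). In both genes the lowest sGC female exceeded the highest control. Non-overlap of this kind was seen for 5 members in F1 females, and for 23.2% of all tested genes. CDH18 and CDH9 kept an FDR under 0.05 in all 8 fits that each left out 1 animal, and CDH10 in 7 of them, with an FDR of 0.0519 without control animal 3.

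These 3 genes lie in 1 run of type II cadherin genes on the genome. In the RefSeq gene table of the guinea pig (assembly mCavPor4.1), the order is CDH18, CDH12, CDH10, CDH9 and CDH6, with 2 other protein-coding genes between CDH18 and CDH12 and 0 between each later pair. CDH12 and CDH6 are further type II cadherins of brain. CDH12 stood at 39.2, 16.0, 19.4 and 32.3 CPM in control and 32.4, 23.1, 53.0 and 64.4 CPM in sGC F1 females (log2 fold change 0.69 with an SE of 0.37, quasi-likelihood FDR = 0.216). Its groups overlapped, with controls 2 and 3 lowest and sGC animals 3 and 4 highest. CDH6 was at 47.3, 27.0, 42.5 and 63.5 and 42.6, 36.5, 94.5 and 66.2 CPM, with sGC animal 3 far above the rest (log2 fold change 0.41 with an SE of 0.33, quasi-likelihood FDR = 0.407). So all 5 estimates were above 0 in F1 females, 3 of them past the threshold. In F3 females the 5 estimates ran from 0.02 for CDH10 to 0.45 for CDH18, and none passed. In F2 females CDH18, CDH12 and CDH10 were below 0 and CDH9 and CDH6 above it, and in F1 males only CDH6 was above 0. The estimates of CDH10 in F3 females, of CDH18 and CDH6 in F2 females and of CDH18, CDH12 and CDH9 in F1 males were smaller than their SE. Their signs turned when single animals were left out. Over all members, 17 of 30 estimates were above 0 in F1 females. Other members that follow each other in the RefSeq order mostly differed in sign there. CDH3 and CDH1, with 0 protein-coding genes between them, had -1.10 and 0.80. PCDH1 and PCDH12, with 1 between, had 0.25 and -0.50, and PCDHB5, with 21 before PCDH1, had -0.18. CDH19 and CDH20, with 20 between, had -0.72 and -0.27. Whether adjacent genes respond together was not tested.

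**Figure D2:**
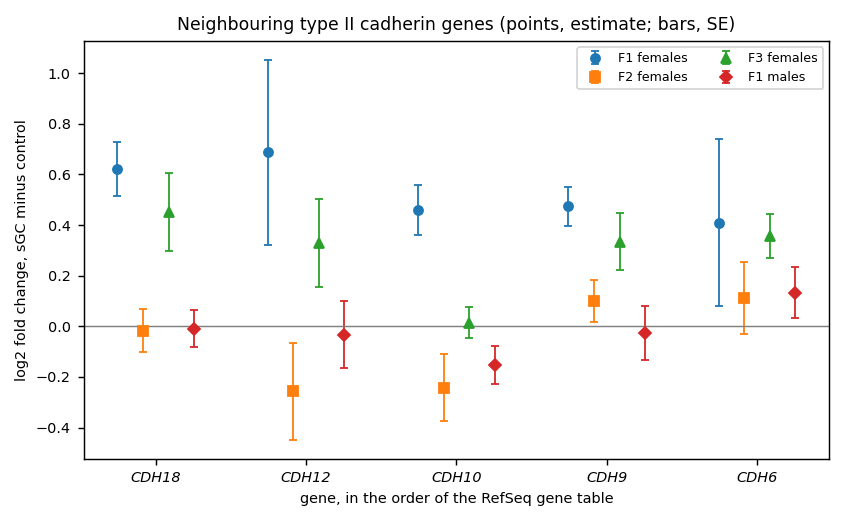
Log2 fold change with its SE (y axis) of the 5 type II cadherin genes in their order along the RefSeq gene table (x axis), with a symbol for each comparison. The F1 female points lie between 0.41 and 0.69, above 0 for all 5 genes, while F2 female and F1 male points lie on both sides of 0.

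Of the 3 delta-1 protocadherins, 2 were also higher in F1 sGC females. PCDH9 was at 77.7, 72.5, 69.4 and 67.0 CPM in control and 84.9, 106, 89.6 and 93.2 CPM in sGC animals, without overlap (log2 fold change 0.38 with an SE of 0.08, quasi-likelihood FDR = 0.0171). PCDH7, an adhesion protein that guides retinal and other axons, was among the members with the most reads, with 1834 to 3287 reads per animal. It stood at 159.6, 127, 129.7 and 141 CPM in control and 179.8, 149, 228 and 210.4 CPM in sGC animals (log2 fold change 0.46 with an SE of 0.13, quasi-likelihood FDR = 0.0451). Control 1 lay above sGC animal 2, so the groups overlapped. The call for PCDH7 was the least firm of the 6, since it held in 2 of 8 fits with an animal left out and was lost with upper-quartile scaling (log2 fold change 0.43, quasi-likelihood FDR = 0.0585). PCDH9 held in 7 of 8. The third delta-1 gene, PCDH1, was at 204 ± 26.9 CPM in control and 242 ± 25.8 CPM in sGC animals (SD, n = 4; log2 fold change 0.25 at a quasi-likelihood FDR of 0.129). The summed level of the 3 delta-1 genes was 381 to 480.0 CPM in controls and 490.3 to 543 CPM in sGC females.

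The member that fell in F1 females was CDH15, or M-cadherin, best known from skeletal muscle and from cerebellar granule cells. Controls were at 7.94, 4.63, 6.42 and 8.08 CPM and sGC animals at 2.99, 2.69, 2.63 and 2.52 CPM (log2 fold change -1.32 with an SE of 0.20, quasi-likelihood FDR = 0.00587 and 36 to 136 reads an animal). The 4 sGC females were all below the lowest control, and the FDR stayed under 0.05 in 8 of 8 fits with an animal left out. The remaining type I cadherins did not pass. N-cadherin, CDH2, was at 144 ± 11.7 CPM in control and 174 ± 32.9 CPM in sGC animals (log2 fold change 0.28 at a quasi-likelihood FDR of 0.156). CDH3, P-cadherin of epithelia, was barely detected at 5 to 25 reads per animal, and had an estimate of -1.10 (quasi-likelihood FDR = 0.0829). The likelihood ratio test alone called it (FDR = 0.0461). CDH1, E-cadherin, had 0.80 at a quasi-likelihood FDR of 0.134, with 8.40, 3.86, 14.2 and 9.73 CPM in the sGC animals.

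**Figure D3:**
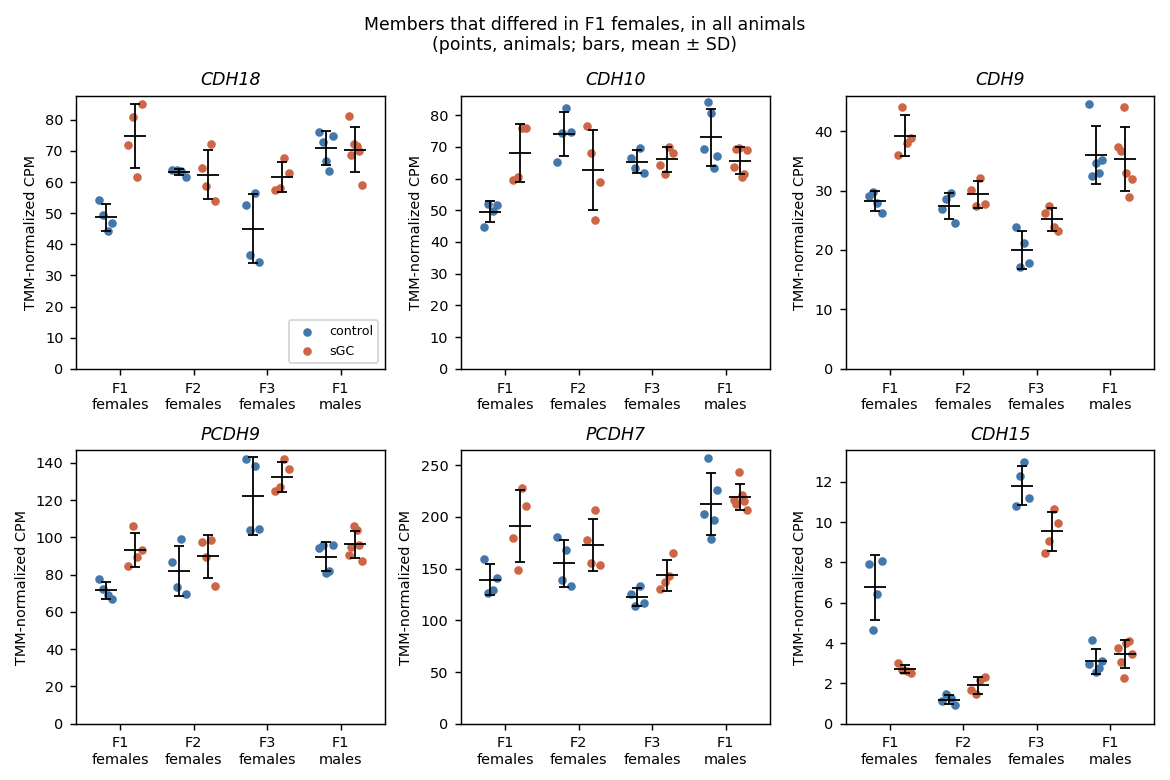
TMM-normalized CPM (y axis, from 0) of the 6 genes that differed in F1 females, in every animal of the 4 tables (points), with mean ± SD bars for control and sGC animals. In F1 females the sGC points lie apart from the control points for CDH18, CDH10, CDH9, PCDH9 and CDH15, and the other tables show no such gap except CDH18 and CDH15 in F3 females.

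In the other tables the 6 genes did not pass. CDH18 was at 63.9, 63.9, 63.6 and 61.7 CPM in control and 64.6, 58.9, 72.3 and 53.9 CPM in sGC F2 females (log2 fold change -0.02 at a quasi-likelihood FDR of 0.943). The F2 controls were close together and the sGC animals lay on both sides of them. In F3 females, CDH18 was at 52.5, 36.6, 56.5 and 34.4 CPM in control and 57.5, 58.2, 67.9 and 62.8 CPM in sGC animals (log2 fold change 0.45 with an SE of 0.15, quasi-likelihood FDR = 0.174). There the groups did not overlap, although the lowest sGC animals were close to control 3. CDH15 differed in direction between tables. F2 controls were at 1.14, 1.47, 1.25 and 0.932 CPM and F2 sGC females at 1.65, 1.46, 2.15 and 2.34 CPM, on 13 to 31 reads (log2 fold change 0.66 at a quasi-likelihood FDR of 0.214). F3 controls were at 10.8, 12.3, 13.0 and 11.2 CPM and F3 sGC females at 8.49, 9.07, 10.7 and 9.95 CPM, without overlap (log2 fold change -0.31 at a quasi-likelihood FDR of 0.163). The control mean of CDH15 itself went from 1.20 CPM in F2 to 11.8 CPM in F3 females, a gap wider than any difference between sGC and control animals, and since the tables were deposited separately, generation and table cannot be told apart. CDH10 was at 74.1 ± 6.89 CPM in control and 62.6 ± 12.6 CPM in sGC animals in F2 and at 65.3 ± 3.57 CPM in control and 66.0 ± 3.84 CPM in sGC animals in F3 females. PCDH7 and PCDH9 had estimates above 0 in all 4 tables, from 0.05 to 0.46 and from 0.10 to 0.38.

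The cell type markers moved between the groups of F1 females too, and their part in these results was not tested. Of the striatal markers, 4 of 8 tested were lower in sGC animals and 0 higher, with sums of 539.7 to 2309.7 CPM in controls and 256 to 571 CPM in sGC animals. The pyramidal neuron markers summed to 1722 to 2963 CPM in controls and 2942 to 6000.0 CPM in sGC animals, and 0 of 4 passed (NEUROD6 2.40, quasi-likelihood FDR = 0.0509). Oligodendrocyte markers summed to 4610.3 to 15721 CPM in controls and 3619 to 7363 CPM in sGC animals, with 0 of 8 called. Lower in sGC animals were 4 of 5 microglia, 3 of 7 astrocyte, 2 of 6 interneuron and 2 of 6 upper layer markers, and 1 of 6 deep layer markers was higher. Over all genes of this table, 7.33% were called lower and 9.21% higher. Interneuron markers summed to 780.3 to 1124 CPM in controls and 647 to 869 CPM in sGC animals, upper layer markers to 464 to 852 and 447 to 825 CPM, and deep layer markers to 425 to 489 and 449 to 809.6 CPM. No marker listed was at 0 reads in any animal. Without controls 1 and 4, the striatal sums of the 2 controls left were 539.7 and 787 CPM. In that fit 8 members passed, without a share of all genes given beside them. Those 8 held 5 of the original 6, with CDH15 at -1.003, CDH18 at 0.70, CDH9 at 0.47, PCDH9 at 0.42 and PCDH7 at 0.60 on the log2 scale. CDH10 kept its size at 0.44 with an FDR of 0.0567 in edgeR's quasi-likelihood test, and CDH19, CDH4 and PCDH1 were added. CDH12, CDH6 and CDH3 did not pass in that fit, at 1.31, 0.81 and -0.76 against 0.69, 0.41 and -1.10 with all animals.

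**Figure D4:**
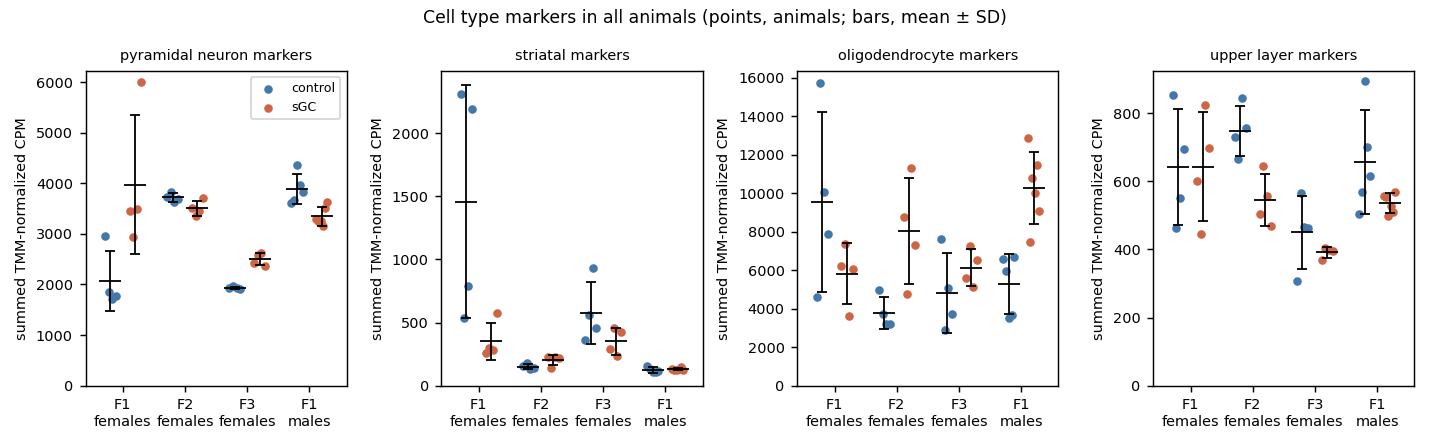
Summed TMM-normalized CPM (y axes, from 0) of 4 marker lists in every animal (points), with mean ± SD bars for control and sGC animals of each table. In F1 females control animals 1 and 4 stand at 2309.7 and 2191 CPM of striatal markers, and in F1 males all 6 sGC animals lie above all 5 controls for oligodendrocyte markers.

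In F1 males a different set of type II cadherins passed. CDH20 was at 42.3, 49.0, 43.4, 46.9 and 50.6 CPM in the 5 controls and between 53.4 and 63.4 CPM (median 55.2) in the 6 sGC males (log2 fold change 0.28 with an SE of 0.06, quasi-likelihood FDR = 0.0128). Every sGC male was above every control, the only such member in this table, where 6.26% of all genes were separated in this way. CDH19, a cadherin of Schwann cells and other glia, was at 8.85, 8.36, 5.62, 6.32 and 8.08 CPM in control and between 8.83 and 15.05 CPM (median 11.6) in the 6 sGC males (log2 fold change 0.61 with an SE of 0.15, quasi-likelihood FDR = 0.0264). Its groups met near 8.85 CPM, where control 1 exceeded the lowest sGC male. CDH8, which marks cortical areas and layers and lies at corticostriatal synapses, was at 48.5, 73.4, 120.1, 98.6 and 69.8 CPM in control and between 36.3 and 65.0 CPM (median 42.0) in the 6 sGC males (log2 fold change -0.88 with an SE of 0.21, quasi-likelihood FDR = 0.0189). Control 1 and sGC animal 6 made the groups overlap. CDH20 held in 11 of 11 fits with an animal left out, CDH8 in 10 and CDH19 in 6. In 1 fit of all 4 tables CDH8 passed, and CDH20 and CDH19 did not (quasi-likelihood FDR = 0.0214, 0.0619 and 0.124). CDH8 missed the threshold without control 4 (quasi-likelihood FDR = 0.0528), and 1 member, CDH20, was left in that fit.

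Next to these was PCDH8, a delta-2 protocadherin induced by neuronal activity that draws N-cadherin away from synapses. It was at 18.6, 19.2, 33.1, 30.8 and 19.6 CPM in control males and between 11.2 and 21.1 CPM (median 15.9) in the 6 sGC males (log2 fold change -0.56 with an SE of 0.19, quasi-likelihood FDR = 0.0798). Controls 3 and 4 stood well above the other animals. Its FDR was 0.0350 in the likelihood ratio test and 0.0275 in DESeq2. PCDH17, a delta-2 protocadherin of corticobasal ganglia circuits, was at 107, 94.0, 144, 124 and 100.2 CPM in control and between 71.6 and 125 CPM (median 84.0) in the 6 sGC males (log2 fold change -0.37 with an SE of 0.14, quasi-likelihood FDR = 0.111). In this table the oligodendrocyte markers were higher in sGC males for 7 of 8 genes tested, beside 5.74% of all genes. Their sums were 3495 to 6684 CPM in controls and 7484 to 12856 CPM in sGC animals, and none was at 0. CDH19 and CDH20 were higher in the same animals, and the part of the oligodendrocyte markers in that was not tested.

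CDH19 and CDH20 follow each other among the members in the RefSeq table, but are not adjacent, with 37 entries between them, 20 of them protein-coding genes. CDH19 varied more than most members among controls. In F1 females it was at 4.03, 21.5, 12.4 and 7.62 CPM in control and 8.27, 7.99, 5.05 and 6.23 CPM in sGC animals (log2 fold change -0.72 at a quasi-likelihood FDR of 0.28). Control 2, the highest for CDH19, also had the highest oligodendrocyte sum, 15721 CPM. In F2 females CDH19 was at 7.76, 5.87, 4.93 and 7.31 CPM in control and 11.1, 7.84, 10.6 and 8.98 CPM in sGC animals, without overlap (log2 fold change 0.57 at a quasi-likelihood FDR of 0.128). Oligodendrocyte sums were 3204 to 4988 CPM in those controls and 4779 to 11330 CPM in those sGC animals. F3 females had 29.7, 14.6, 26.1 and 16.2 CPM in control and 21.3, 28.5, 27.4 and 31.7 CPM in sGC animals (log2 fold change 0.33 at a quasi-likelihood FDR of 0.502). Control 2, the lowest of them, had the lowest oligodendrocyte sum of the table, 2870.2 CPM. Oligodendrocyte sums overlapped there, at 2870.2 to 7607 CPM in control and 5106 to 7261 CPM in sGC F3 females. Most animals are not set beside their own sum here, and the part of the oligodendrocyte markers in the CDH19 values was not tested.

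CDH8 had estimates below 0 in F2 females, F3 females and F1 males, and the difference passed the quasi-likelihood test in F1 males alone. Its F1 female estimate was below 0 with all animals and above 0 without control animals 1 and 4. F2 controls were at 89.4, 89.3, 116 and 86.0 CPM and F2 sGC females at 62.5, 75.4, 53.7 and 65.5 CPM, without overlap (log2 fold change -0.57 with an SE of 0.12, quasi-likelihood FDR = 0.0556). The FDR was 0.000655 in the likelihood ratio test and 0.000724 in DESeq2, and under 0.05 in the quasi-likelihood fit in 2 of 8 fits with an animal left out. F3 controls were at 47.3, 110.1, 83.2 and 83.7 CPM and F3 sGC females at 54.2, 44.5, 46.3 and 39.9 CPM (log2 fold change -0.81 with an SE of 0.21, quasi-likelihood FDR = 0.0968). Control 1 fell among the sGC animals, and the FDR was 0.00568 without it, with a log2 fold change of -0.996. In F1 females the values were 105, 39.1, 70.2 and 98.4 CPM in control and 60.8, 46.6, 113 and 62.4 CPM in sGC animals (log2 fold change -0.14 with an SE of 0.34, quasi-likelihood FDR = 0.796). Both groups ranged widely there, and without controls 1 and 4 the log2 fold change was 0.40 at a quasi-likelihood FDR of 0.501. None of the 4 tests of a difference in response between tables was passed by CDH8 (quasi-likelihood FDR from 0.181 to 0.756).

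In all 4 tables the control animal with the highest CDH8 also had the highest sum of upper layer markers. This was control 1 in F1 females, with a sum of 852 CPM, control 3 in F2 females, with 843 CPM, control 2 in F3 females, with 564 CPM, and control 3 in F1 males, with 895 CPM. F3 control 1, the lowest of its group for CDH8, had the lowest sum of its table, 306 CPM. Among F3 sGC females the order differed, since animal 1 had the highest CDH8 and the lowest sum, 368 CPM. The upper layer sums were 505 to 895 CPM in control and 499 to 568 CPM in sGC males, 665 to 843 CPM in control and 469 to 646 CPM in sGC F2 females, and 306 to 564 CPM in control and 368 to 405 CPM in sGC F3 females. No upper layer marker was called in these 3 tables and none was at 0. Their median log2 fold change was -0.49 in F1 males, -0.83 in F2 females and -0.20 in F3 females. In the same order, 1 of 6, 0 of 6 and 1 of 5 estimates were above 0. At an unadjusted p under 0.05 in edgeR's quasi-likelihood test stood 2 of 6, 4 of 6 and 1 of 5. The shares of all genes at that p were 25.2%, 16.1% and 17.3%. In F1 females 2 of 6 were lower, beside 7.33% of all genes. The sums overlapped there, at 464 to 852 CPM in control and 447 to 825 CPM in sGC animals. The part of this list in the CDH8 values was not tested.

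**Figure D5:**
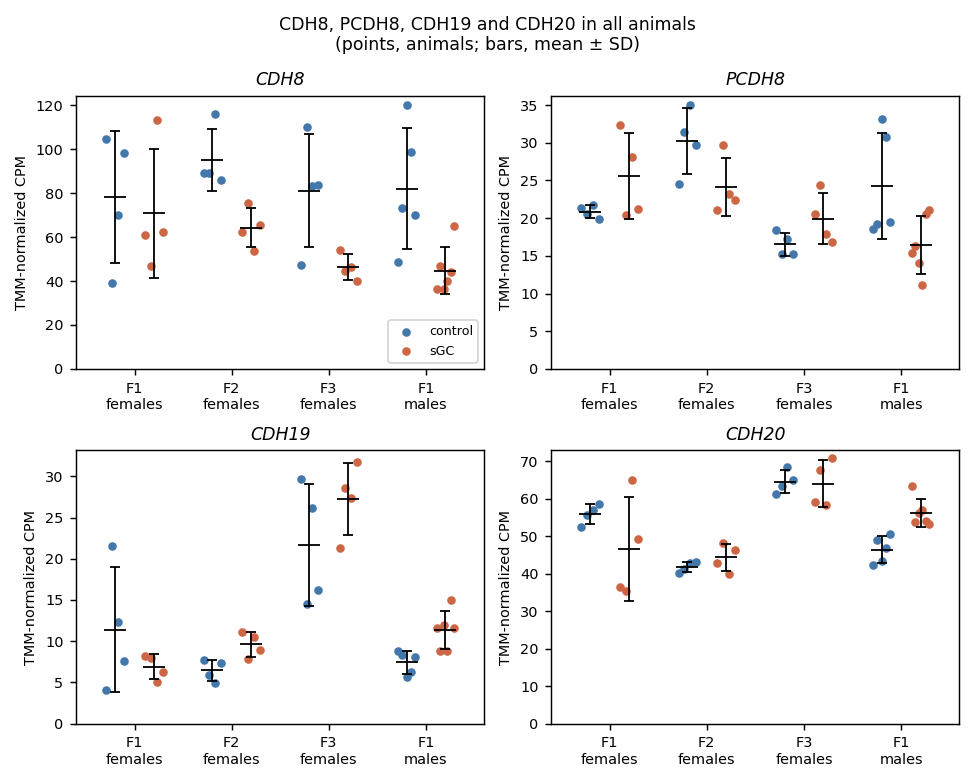
TMM-normalized CPM (y axes, from 0) of CDH8, PCDH8, CDH19 and CDH20 in every animal (points), with mean ± SD bars for control and sGC animals of each table. CDH8 is lower in sGC animals in F2 females, F3 females and F1 males with control animals spread from 47.3 to 120.1 CPM in those tables, and CDH20 separates the groups in F1 males only.

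In F2 females, 5 members had groups that did not overlap, where 8.09% of all genes did. Besides CDH8 and CDH19 these were CDH4, CDH24 and PCDHGB7. CDH4, or R-cadherin, a type I cadherin of retina and forebrain, was at 41.5, 42.6, 44.0 and 45.4 CPM in control and 36.7, 37.5, 36.4 and 30.2 CPM in sGC animals (log2 fold change -0.30 with an SE of 0.08, quasi-likelihood FDR = 0.0981). The groups did not overlap, and sGC animal 4 lay well below the other sGC animals. CDH24, a type II cadherin, was at 17.9, 19.5, 15.7 and 20.5 CPM in control and 31.0, 21.7, 22.1 and 24.4 CPM in sGC animals (log2 fold change 0.43 with an SE of 0.13, quasi-likelihood FDR = 0.135). PCDHGB7, of the gamma cluster, was at 25.1, 23.6, 27.4 and 23.7 and 21.1, 23.1, 20.3 and 21.7 CPM (log2 fold change -0.21 at a quasi-likelihood FDR of 0.232). The likelihood ratio test called CDH4, CDH8, CDH19 and CDH24 in F2 females and DESeq2 called CDH4 and CDH8. In the quasi-likelihood fits with an animal left out, these 4 genes had their highest FDR without control 3, from 0.167 to 0.354.

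In F3 females the 5 members without overlap were CDH6, CDH18, CDH15, PCDH12 and PCDH17, where the background was 10.3%. CDH6 was at 22.6, 28.4, 25.9 and 25.5 CPM in control and 31.6, 30.0, 36.9 and 32.7 CPM in sGC animals (log2 fold change 0.36 with an SE of 0.09, quasi-likelihood FDR = 0.078). The likelihood ratio test and DESeq2 called CDH6 and CDH8 in this table. PCDH12, a protocadherin of endothelium, rested on 38 to 69 reads per animal, and was at 2.42, 3.19, 2.59 and 2.99 CPM in control and 3.22, 3.66, 4.09 and 3.80 CPM in sGC animals (log2 fold change 0.40 at a quasi-likelihood FDR of 0.207). PCDH17 was at 145, 141, 155 and 137 CPM in control and 132, 118, 135 and 131 CPM in sGC animals (log2 fold change -0.16 at a quasi-likelihood FDR of 0.202). CDH9 overlapped, at 23.8, 17.1, 21.2 and 17.7 CPM in control and 26.2, 27.4, 23.9 and 23.2 CPM in sGC animals (log2 fold change 0.33 at a quasi-likelihood FDR of 0.169), and passed when control 1 was left out. Cell type markers moved in F3 females as well, and their part was not tested. Pyramidal neuron markers summed to 1902 to 1967 CPM in control and 2364 to 2613 CPM in sGC animals. Striatal sums were 364 to 928 and 232 to 458 CPM, and interneuron sums 535 to 741 and 458 to 548 CPM. Of these lists 0 of 4, 0 of 8 and 1 of 5 markers were called.

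The difference in response between tables was tested directly for the 29 members listed in both tables of each pair. Between F1 males and F1 females it passed for 9 of 29, where 31.7% of all genes passed. In 7 of the 9 the estimates of the sexes had opposite signs, as did 92.3% of all genes that passed. No member passed within both F1 tables, and the male estimates of CDH18 (-0.01, SE 0.07) and CDH9 (-0.03, SE 0.11) were smaller than their SE. CDH15 (difference 1.46, SE 0.27, quasi-likelihood FDR = 0.000695), CDH19 (difference 1.31, SE 0.44, quasi-likelihood FDR = 0.0292) and CDH20 (difference 0.54, SE 0.17, quasi-likelihood FDR = 0.0246) were shifted towards higher expression in sGC males. CDH18 (difference -0.64, SE 0.13, quasi-likelihood FDR = 0.00157), CDH10 (difference -0.62, SE 0.13, quasi-likelihood FDR = 0.00152), CDH9 (difference -0.51, SE 0.15, quasi-likelihood FDR = 0.0176) and PCDH8 (difference -0.87, SE 0.28, quasi-likelihood FDR = 0.0253) were shifted the other way. For PCDH9 and PCDH7 the differences were -0.29 and -0.42, with quasi-likelihood FDR of 0.0445 and 0.0454, and they passed in 7 and 5 of the 19 fits with an animal left out. CDH15, CDH18, CDH10 and CDH9 passed in 19 of 19, PCDH8 in 18, CDH20 in 17 and CDH19 in 15. The CDH19 difference was 0.81 without F1 female control 2 (quasi-likelihood FDR = 0.104) and 1.60 without control 1. The male libraries were deeper and their table was deposited separately, so sex, table and depth cannot be told apart here.

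Between F2 and F1 females, 5 of 29 differed, where 13.8% of all genes did. CDH15 moved most (difference 1.98, SE 0.31, quasi-likelihood FDR = 0.00272), from -1.32 in F1 to 0.66 in F2. PCDH12 went from -0.50 to 0.55 (difference 1.05, SE 0.28, quasi-likelihood FDR = 0.0242). The differences for CDH10, CDH18 and CDH9 were -0.71, -0.64 and -0.38, with quasi-likelihood FDR of 0.0202, 0.0114 and 0.0371. In 16 of 16 fits with an animal left out CDH15, CDH18 and CDH10 passed, while PCDH12 passed in 13 and CDH9 in 8, with an FDR of up to 0.0549 and 0.0747 in edgeR's quasi-likelihood test. Both comparisons used the same F1 female animals. Fits with F1 control animals 1 and 4 out are given without the share of all genes. In them 9 members passed between F1 males and F1 females and 8 between F2 and F1 females. None passed between F3 and F1 females in edgeR's quasi-likelihood test, where 0.0981% of all genes did and 3 members had an unadjusted p under 0.05. None passed between F3 and F2 females either, where 0.0180% of all genes did and 4 members had an unadjusted p under 0.05. In those pairs the likelihood ratio test called 2 and 1 members and DESeq2 called 2 and 0, also without a share of all genes given.

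The clustered protocadherins gave no call in any table, with 7 tested in F1 females, F2 females and F1 males and 8 in F3 females. Their estimates lay between -0.64 and 0.13. PCDHGA1 in F2 females was the largest, at 9.47, 6.75, 5.95 and 12.1 CPM in control and 6.36, 5.92, 5.35 and 4.30 CPM in sGC animals (log2 fold change -0.64 at a quasi-likelihood FDR of 0.19). Summed over the clusters, levels were 90.0 to 116 CPM in control and 86.3 to 95.8 CPM in sGC F1 females, and 87.9 to 105 CPM in control and 92.3 to 107 CPM in sGC F1 males. PCDHA6 was at 8.58, 5.95, 5.81 and 6.05 CPM in control F1 females and at 188, 185, 218 and 179 CPM in control F3 females. The genes of the alpha cluster share their last exons, as do those of the gamma cluster, and how reads in these were assigned is not given in the sources used here, so single PCDHA and PCDHG genes are uncertain. At unadjusted p under 0.05, in edgeR's quasi-likelihood test, there were 0, 2, 0 and 0 of them in F1, F2 and F3 females and F1 males.

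Over the 28 members tested in all 4 tables, CDH1, CDH6, PCDH7 and PCDH9 had estimates above 0 in each and CDH3, CDH8 and PCDHA2 below 0 in each. Without F1 female controls 1 and 4, the F1 female estimates of CDH8 and PCDHA2 were above 0, at 0.40 and 0.03. Leaving out single animals also turned the sign of CDH6 and CDH3 in F2 females, PCDH7 in F1 males, CDH8 in F1 females and PCDHA2 in each female table. Among all genes 8.22% were above 0 and 10.4% below 0 throughout, so these 4 and 3 of 28 were near the background. Spread among controls differed by gene. The median coefficient of variation of the members in controls was 16.0% in F1 females, 12.3% in F2 females, 9.91% in F3 females and 15.4% in F1 males. CDH19 was the most variable in F1 females, at 66.5%, and in F3 females, at 34.2%. CDH8 was so in F1 males, at 33.8%, and CDH3 in F2 females, at 40.0%. The steadiest were PCDH8 in F1 females at 4.03%, CDH18 in F2 females at 1.69%, PCDHGB7 in F3 females at 2.99% and PCDH1 in F1 males at 4.65%.

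Proteins that work with cadherins were called mostly in the F1 tables, as were genes in general, with 16.5% of all tested genes in F1 females and 9.22% in F1 males against 0.278% in F2 and 1.34% in F3 females. Among relatives in the wider superfamily, 5 of 11 tested were higher and 1 was lower in F1 sGC females. The calsyntenins, postsynaptic cadherins that also dock cargo for axonal transport, made up 3 of the 5. CLSTN2 was at 189 ± 30.3 CPM in control and 343 ± 28.4 CPM in sGC animals (SD, n = 4; log2 fold change 0.86 at a quasi-likelihood FDR of 0.00404). CLSTN1 was at 1553 ± 139.7 CPM in control and 2193 ± 85.7 CPM in sGC animals (log2 fold change 0.50 at a quasi-likelihood FDR of 0.00537), and for CLSTN3 the log2 fold change was 0.36. All 4 sGC females exceeded all 4 controls for each calsyntenin, in a table where the groups did not overlap for 23.2% of all genes. CDHR1, a photoreceptor cadherin also found in olfactory bulb projection neurons, was higher in F1 females (log2 fold change 1.31 at a quasi-likelihood FDR of 0.0209) and in F3 females (log2 fold change 0.91 at a quasi-likelihood FDR of 0.0367). FAT1, a giant cadherin of proliferating and glial cells, was lower in F1 females (log2 fold change -0.50 at a quasi-likelihood FDR of 0.0123), and DCHS2 in F3 females (log2 fold change -0.54 at a quasi-likelihood FDR of 0.0418). In F1 males 0 of 11 passed, and in F2 females 0 of 11.

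Catenins and other junction linkers gave 1 higher and 2 lower of 14 in F1 females, near the 16.5% over all genes. CTNND2, the neuronal delta-catenin, was higher (log2 fold change 0.27 at a quasi-likelihood FDR of 0.0346). CTNNA1, the alpha-catenin that joins the complex to actin, was at 128 ± 12.9 CPM in control and 95.7 ± 11.6 CPM in sGC animals (log2 fold change -0.42 at a quasi-likelihood FDR of 0.027), and NECTIN3, an adhesion partner at the same junctions, was also lower (log2 fold change -0.50). In F1 males CTNNA1 was at 96.6 ± 4.04 CPM in control and 125 ± 8.57 CPM in sGC animals (SD, n = 5 and 6; log2 fold change 0.38 at a quasi-likelihood FDR of 0.00303). So CTNNA1 fell in F1 females and rose in F1 males, and the difference passed (difference 0.79, SE 0.11, quasi-likelihood FDR = 6e-05). The same difference passed for 31.7% of all genes, and 92.3% of those had opposite signs in the 2 tables. CTNNA3 and PKP4 were the other 2 of 14 that rose in males (log2 fold change 0.72 and 0.27).

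Actin regulators and kinases downstream of protocadherins gave 4 higher and 2 lower of 10 in F1 females, where 9.21% of all genes were higher and 7.33% lower. NCKAP1, WASF1 and CYFIP2, subunits of the WAVE complex, had log2 fold changes of 0.40, 0.33 and 0.29, and PTK2B, the kinase Pyk2, had 0.40. RYK, a Wnt receptor, and CYFIP1 were lower, at -0.51 and -0.22. Of the sheddases that cut cadherins at the membrane, ADAM17 was lower in F1 females (log2 fold change -0.49 at a quasi-likelihood FDR of 0.0463) and higher in F1 males (log2 fold change 0.55 at a quasi-likelihood FDR of 0.00509). This difference too passed, as it did for 31.7% of all genes (difference 1.03, SE 0.17, quasi-likelihood FDR = 0.000303). ADAM17 was 1 of 6 in females and, with APH1A, a gamma-secretase subunit, 2 of 6 in males, beside 16.5% and 9.22% of all genes. Among 8 regulators of the clusters, the cohesin subunit SMC1A was higher in F1 females (log2 fold change 0.30) and the histone methyltransferase SETDB1 in F1 males (log2 fold change 0.54). ABI2, a WAVE complex subunit, was lower in males, 1 of 10 (log2 fold change -0.20). F2 females had no call in any of these 5 lists in edgeR's quasi-likelihood test, with 1 to 4 genes of each list at an unadjusted p under 0.05.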

How the data were processed

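RNA from mPFC punches was sequenced as 1 library per animal. The authors aligned reads with TopHat2 and tested genes with edgeR, per the labels, and deposited 4 tables of raw counts per gene symbol, 1 per comparison. The genome build, annotation and counting tool are not given in the sources used here. Columns with the authors' own fold changes, mean levels, test statistics, p-values and FDR were not used. No column of per-sample values was left unused (0).

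The deposited counts were taken table by table through edgeR 4.0.16 under R 4.3.3, with limma 3.58.1 as its dependency, after filterByExpr (minimum count 10, total 15) and TMM scaling, by quasi-likelihood F-tests of sGC against control, with Benjamini-Hochberg FDR over all tested genes and a threshold of 0.05. The authors named the likelihood ratio test, which is an alternative here with DESeq2 1.42.0, other scalings and filters, a replicate block, 1 fit of all tables and leaving out each animal. Differences in response between tables were tested as interactions. The fits were tested on simulated data. CPM are counts divided by the TMM-scaled library size. Depth limits the precision of low genes such as CDH3 and CDH15.

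Members and gene lists were chosen with earlier results of these data known. Values of every animal are given for members past the threshold in a comparison or interaction, and for the members that moved most without overlap of the groups. In the partner lists called genes were named, except that not all superfamily genes higher in F1 females are named. Called genes of the marker lists are given as counts and sums, not by name. Replicate numbers were not used as pairs, since same-numbered sGC and control animals did not deviate together (correlations from -0.33 to 0.36 over all tables). The lowest chi-square per degree of freedom between 2 libraries of a group was 2.84, so no library was counted as a duplicate. Of the 31 genes, 23 were matched by symbol to the RefSeq gene table, used for gene order only. Figures were drawn with matplotlib.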

Additional observations from a re-analysis of the deposited data

Results flagged for a closer look

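Single animals stood far from the rest of their group for 17 of the 240 combinations of gene and group examined, and chance alone gives about 1 in 20. In F1 females, control 1 was low for PCDH15 (2.98 CPM, the others from 4.47 CPM) and high for PCDHA6 (8.58 CPM, the others up to 6.05 CPM) and PCDHGB7 (27.0 CPM, up to 22.4 CPM). It is 1 of the 2 controls with high striatal markers. Among F1 sGC females, animal 1 was high for CDH3 (0.846 CPM, up to 0.420 CPM) and animal 3 for PCDHB5 (31.8 CPM, up to 24.2 CPM). In F2 females, control 1 was high for CDH1 (6.62 CPM, up to 4.15 CPM), control 3 for CDH3 (1.49 CPM, up to 0.783 CPM) and CDH8 (115.9 CPM, up to 89.4 CPM), and control 4 was low for CDH18 (61.7 CPM, from 63.6 CPM). The F2 sGC animal 4 was low for CDH4 (30.2 CPM, from 36.4 CPM) and PCDHB5 (22.5 CPM, from 25.9 CPM). In F3 females, sGC animal 1 was low for CDH12 (15.6 CPM, from 21.9 CPM).

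Among F1 males, control 1 was high for CDH9 (44.6 CPM, the others up to 35.2 CPM), sGC animal 1 for CDH20 (63.4 CPM, up to 56.9 CPM) and sGC animal 4 for PCDH12 (6.47 CPM, up to 4.53 CPM). The sGC animal 6 was high for CDH8 (65.0 CPM, up to 46.8 CPM) and PCDH17 (124.8 CPM, up to 86.3 CPM). Without that animal, PCDH8 and PCDH17 passed the threshold in F1 males beside CDH8, CDH19 and CDH20.

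The response to sGC differed between F1 males and F1 females, by a test of the difference on the log2 scale, for CDH15 (1.46), CDH19 (1.31) and CDH20 (0.54), and in the other direction for CDH18 (-0.64), CDH9 (-0.51), CDH10 (-0.62), PCDH9 (-0.29), PCDH7 (-0.42) and PCDH8 (-0.87). It differed between F2 and F1 females for CDH15 (1.98) and PCDH12 (1.05), and in the other direction for CDH18 (-0.64), CDH9 (-0.38) and CDH10 (-0.71). The F1 female animals are shared by these comparisons.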

How the results depend on the processing

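No member past the threshold changed direction under any alternative. Estimates near 0 did. CDH8 in F1 females went to 0.40 without controls 1 and 4, CDH10 in F3 females to -0.0100 with upper-quartile scaling, and CDH12 and CDH18 in F1 males to 0.0679 and 0.0370 with the replicate number as a block. Leaving out 1 animal gave from -0.465 to 0.0530 for CDH8 in F1 females, from -0.102 to 0.0437 for CDH18 in F2 females, from -0.0128 to 0.0485 for CDH10 in F3 females, and from -0.0977 to 0.0576 for CDH12 and from -0.0545 to 0.0366 for CDH18 in F1 males. Over all members, 5 of 30 turned sign in F1 females, 0 in F2 females, 3 in F3 females and 3 in F1 males under the other alternatives, none of them called. Upper-quartile scaling also turned the split of all genes called in F1 females to 7.13% higher and 9.66% lower. The number of members past the threshold in F1 females was 13 in the single fit of all 4 tables. It was 4 with the likelihood ratio test and 2 with DESeq2 in F2 females, and 2, 2 and 1 with the likelihood ratio test, DESeq2 and the single fit in F3 females. Between F2 and F1 females it was 8 with DESeq2 and 8 without F1 female controls 1 and 4, an alternative chosen after seeing the data. Between F3 and F1 females it was 2 with the likelihood ratio test and 2 with DESeq2, and between F3 and F2 females 1 with the likelihood ratio test. In F1 males the single fit lost CDH20 and CDH19 (quasi-likelihood FDR = 0.0619 and 0.124). The counts of members under these alternatives are given without the share of all genes in the same fit. The cause of these shifts was not tested. Leaving out 1 animal gave 3 to 8 members in F1 females (3 without control 3), 0 to 1 in F2 females, 0 to 2 in F3 females (2 without control 1) and 1 to 5 in F1 males (1 without control 4, 5 without sGC animal 6). The interactions ranged from 6 to 12 (F1 males and F1 females), 3 to 8 (F2 and F1 females), 0 to 1 (F3 and F1 females, CDH15 without F1 female control 2) and 0 to 0 (F3 and F2 females). With the replicate number as a block, 5, 0, 0 and 4 members passed in F1, F2 and F3 females and F1 males, and 6, 6, 0 and 0 in the 4 interactions, in the order above. The numbers do not pair the samples, as no table had a correlation over 0.1 for every number, and 1 of 4 F1 female controls correlated best with its own number. Scaling by RLE and a run without the low-count filter changed no call of a named member, and upper-quartile scaling lost 3 of 58. With 4 animals a group, a difference the size of the spread among controls, as for CDH19 or CDH12 in F1 females, could not be resolved.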

Other observations

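A few members outside the groups described above had sizeable estimates that did not pass edgeR's quasi-likelihood test. PCDH18, a delta-2 protocadherin, was at 10.7, 17.6, 11.4 and 9.27 CPM in control and 18.7, 32.9, 10.04 and 19.9 CPM in sGC F1 females (log2 fold change 0.73 at a quasi-likelihood FDR of 0.156). CDH22, a type II cadherin of forebrain, was at 24.5 ± 3.62 CPM in control and 18.8 ± 2.60 CPM in sGC animals in F2 females (log2 fold change -0.39 at a quasi-likelihood FDR of 0.179) and at 22.6 ± 6.35 CPM in control and 17.6 ± 2.40 CPM in sGC animals in F1 males (log2 fold change -0.36 at a quasi-likelihood FDR of 0.178). PCDH15, known from the tip links of inner ear hair cells, was at 4.16 ± 0.789 CPM in control and 3.26 ± 0.139 CPM in sGC animals in F1 females (log2 fold change -0.35 at a quasi-likelihood FDR of 0.19).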
